A study of Mus musculus with 6 samples.

Results

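Long intergenic noncoding RNAs (lincRNAs) expressed in the whole mouse aorta were described gene by gene. They were taken as the autosomal genes whose biotype in the deposited annotation is lincRNA and whose mean over 6 libraries was at least 1 FPKM (a count of fragments divided by gene length and by the library's total), with the imprinted genes H19 and Meg3 left out. The members were thus selected on their mean level over both genotypes and not on the difference between them, although 16 had a wild-type mean under 1 FPKM and 10 an EC-Jag1KO mean under 1 FPKM. The rule kept 165 genes of 2769 lincRNA genes in the table. Of the 2213 lincRNA genes on autosomes, 1029 had no read in any library and 1019 had a mean above 0 but under the threshold. The threshold fell within a continuous range of levels: Ino80dos (1.001 FPKM) and Gm11464 (1.004 FPKM) were the members nearest to it, and A130014A01Rik (0.9997 FPKM) and 2610035D17Rik (0.969 FPKM) were the nearest genes below it. In the same range were 4932441J04Rik, Gdap10 and Gm26792 as members, and Gm16845, Gm26908 and 4930480K23Rik below the threshold.

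LincRNAs are transcribed by RNA polymerase II from loci outside protein-coding genes, and are capped, usually spliced and polyadenylated. Some act in the nucleus as scaffolds or at chromatin, some carry microRNAs or small nucleolar RNAs in their introns or exons, some bind microRNAs, and for most no role is known. In the vessel wall the best studied lie beside the gene cluster of miR-143 and miR-145, which are abundant in smooth muscle.

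Total RNA was sequenced from aortas of 3 wild-type samples and 3 EC-Jag1KO samples, in which Jagged1, a ligand of Notch receptors, was deleted in mature endothelial cells. The labels give neither the Cre driver nor the animals' age or sex, nor whether each library is a different animal; p-values therefore cover only how far these samples spread, which may be technical. Reads assigned to genes numbered 19889910 to 25914325 per library, and each FPKM value was converted back to whole reads. Xist was expressed in wild-type replicate 3 (26.9 FPKM) and EC-Jag1KO replicate 3 (40.7 FPKM) and was under 0.1 FPKM in the other libraries. Jag1 itself stood at 9.86, 10.6 and 16.9 FPKM in the wild-type and at 13.5, 9.42 and 19.6 FPKM in the EC-Jag1KO libraries. That is 12.4 ± 3.8 against 14.2 ± 5.1 FPKM (SD, n = 3 each, exact two-sided permutation p = 0.7, where the smallest possible p is 0.1), so its level in whole tissue did not separate the labels, and EC-Jag1KO here means the libraries so labelled.

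The markers of smooth muscle (5 of 5 expressed) summed to 13677 to 14342 FPKM in the wild-type and 11399 to 13583 FPKM in the EC-Jag1KO libraries, and those of endothelium (5 of 5) to 242 to 353 and 275 to 364 FPKM, as the labelled tissue requires. Adipocyte markers summed to 211 to 1177 FPKM in the wild-type and 399 to 922 FPKM in the EC-Jag1KO libraries, and red blood cell markers to 383 to 795 and 103 to 458 FPKM. Lymphocyte and mesothelium markers all had means under 1 FPKM. In bulk tissue, fewer cells of a type and less RNA per cell cannot be told apart.

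Most lincRNAs of the aorta were present at low levels, and a handful were abundant. The median member had a mean of 2.33 FPKM, against 9.88 FPKM for the tested protein-coding genes, and a length of 1703 bases against 3165.5. Of the 165, 74 had a mean between 1 and 2 FPKM, 68 between 2 and 10, 23 of 10 or more and 3 of 100 or more. In 114 of them every library was at or above 1 FPKM. At the low end counting limits the values: the median over members of the fewest reads in a library was 70. Of the 165, 145 carry a predicted-gene, clone, RIKEN or expressed-sequence name in the deposited annotation. Some of these have other names in GENCODE M21, such as Bvht for Gm20748.

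**Figure D1:**
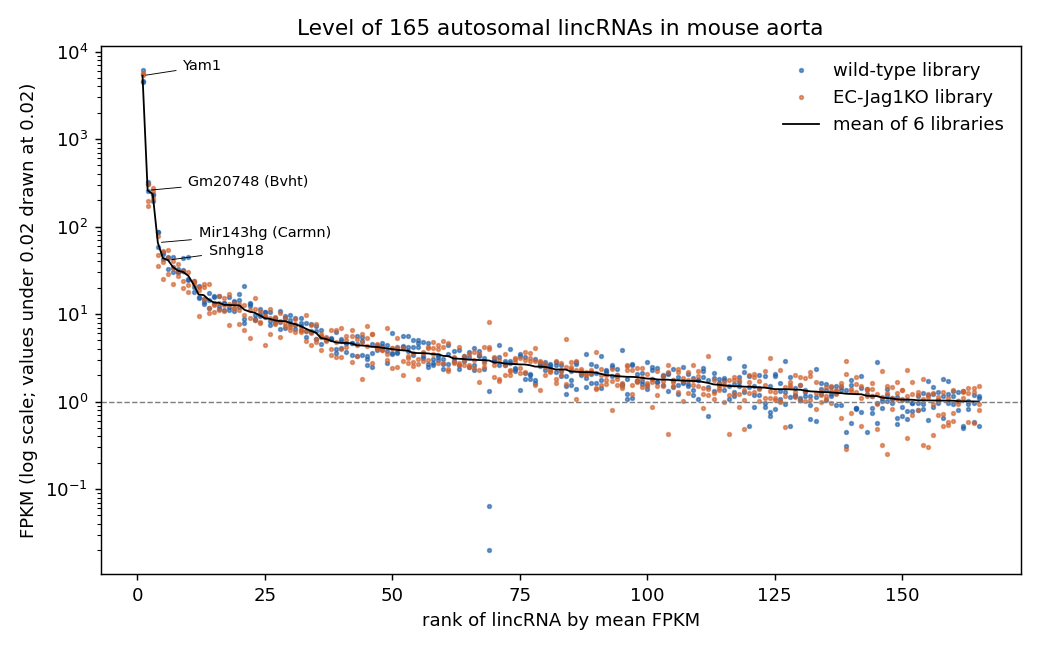
FPKM of each of the 165 lincRNAs in each library (points, log scale) against its rank by mean FPKM (line, mean of 6 libraries; dashed line, 1 FPKM). Levels drop from 4434 to 6168 FPKM for Yam1 to a long tail near the threshold, and 1 gene near rank 69, RP24-479J14.1, has 2 wild-type libraries far under its mean.

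The biotypes were those of the release behind the deposited table. In GENCODE M21, 152 of the 165 identifiers were found, of which 104 were still lincRNA, 20 had become antisense genes, 13 processed transcripts, 10 bidirectional promoter lncRNAs and 5 something else. Of the 165, 50 overlapped their nearest protein-coding gene by the table's coordinates, 41 of them on the opposite strand and 9 on the same strand. Since the strand setting of the counting is not given, reads of these genes and of their partners cannot be told apart.

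Yam1 was the most abundant member, with 4434, 6168 and 4558 FPKM in the wild-type and 5410, 5542 and 5713 FPKM in the EC-Jag1KO libraries. It alone took 0.812% to 1.13% of all assigned reads, while the remaining members together took 0.386% to 0.484%. Yam1 (mm10, plus strand of chr17:39846958-39848788, Gm42418 in GENCODE M21) lies opposite a gene annotated there as ribosomal RNA, CT010467.1, and opposite the lincRNA AY036118, so its reads may come from any of them. Its log2 fold change, EC-Jag1KO over wild-type on the log2(FPKM + 1) scale used throughout, was 0.15 ± 0.20 (SE), and it was -0.13 after quantile normalization.

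The second and the fourth most abundant, on either side of Malat1, were Gm20748, named Bvht (Braveheart) in GENCODE M21, and Mir143hg, named Carmn there. Bvht is known in mouse for its part in the commitment of cardiac progenitors, and Carmn for its part in cardiac and smooth muscle differentiation. Bvht stood at 320, 308 and 256 FPKM in the wild-type and at 196, 306 and 172 FPKM in the EC-Jag1KO libraries. Carmn stood at 86.6, 86.7 and 57.7 FPKM in the wild-type and at 47.8, 78.9 and 35.6 FPKM in the EC-Jag1KO libraries. EC-Jag1KO replicates 1 and 3 were the lowest libraries for both genes, replicate 2 lay among the wild-type libraries, and the groups overlapped. The log2 fold changes were -0.43 ± 0.22 (SE) for Bvht and -0.55 ± 0.29 for Carmn, with limma adjusted p = 0.702 and adjusted p = 0.71, and neither passed.

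Both genes lie on chromosome 18, on opposite strands, and the coordinates of their nearest ends differ by 2153. The ratio of Bvht to Carmn in FPKM was 3.69, 3.55 and 4.43 in the wild-type and 4.10, 3.88 and 4.82 in the EC-Jag1KO libraries. Replicate 3 had the highest ratio in each genotype. The summed smooth muscle markers were also lowest in EC-Jag1KO replicates 3 (11399 FPKM) and 1 (12735 FPKM). Of the 5 markers, 4 had a log2 fold change below 0, against 50.05% of all genes tested, and Cnn1 had one of 0.10. At an unadjusted limma p under 0.05 stood 1 of the 5, against 7.71% of all genes tested. The part of smooth muscle content in the values of Bvht and Carmn was not tested.

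Of the other vascular and developmental lncRNAs on the list (23 symbols, of which 6, standing for 5 genes, were members), Malat1 is described below, and Fendrr and Gata6os were low. Fendrr, which in mouse is needed for heart and body wall development, stood at 1.02, 1.11 and 0.839 FPKM in the wild-type and at 1.14, 2.25 and 0.320 FPKM in the EC-Jag1KO libraries. The EC-Jag1KO libraries spanned the whole wild-type range. Gata6os (1010001N08Rik), which lies beside the gene of the transcription factor GATA6, stood at 2.37, 2.65 and 3.92 against 2.60, 2.79 and 4.18 FPKM. Replicate 3 was the highest library in both genotypes.

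Malat1 and Neat1 are neighbouring nuclear lncRNAs, Malat1 of nuclear speckles and Neat1 the scaffold of paraspeckles. Malat1 stood at 232, 237 and 196 FPKM in the wild-type and at 210, 278 and 256 FPKM in the EC-Jag1KO libraries. Neat1 stood at 48.9, 42.9 and 51.9 FPKM in the wild-type and at 39.7, 52.4 and 24.99 FPKM in the EC-Jag1KO libraries. The groups overlapped for both, with log2 fold changes of 0.16 ± 0.14 (SE) for Malat1 and -0.35 ± 0.25 for Neat1. The low mean of Neat1 came from EC-Jag1KO replicate 3: without it the log2 fold change was -0.065.

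Pvt1, beside the proto-oncogene Myc, stood at 0.956, 0.971 and 0.785 FPKM in the wild-type and at 1.21, 0.697 and 1.67 FPKM in the EC-Jag1KO libraries. The groups overlapped. Mirg, a microRNA host of the imprinted Dlk1 and Dio3 region, stood at 1.83, 1.16 and 0.641 against 0.729, 1.28 and 0.525 FPKM. Its values overlapped too. The remaining member on the list headed nuclear and chromatin-associated was Cyrano, whose place in the cell was not measured.

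Cyrano (1700020I14Rik, also Oip5os1; mm10, plus strand of chr2:119594297-119607502) is known in mouse for a nearly fully paired site for miR-7 that leads to the decay of that microRNA. It was the only list member with an unadjusted p under 0.05. It stood at 15.02, 13.6 and 12.9 FPKM in the wild-type and at 20.5, 14.99 and 21.8 FPKM in the EC-Jag1KO libraries. EC-Jag1KO replicate 2 lay just below the highest wild-type library, so the groups overlapped. The log2 fold change was 0.43 ± 0.15 (SE; limma adjusted p = 0.579), and it lay between 0.33 and 0.58 with each library left out in turn. The unadjusted p was under 0.05 in 2 of those 6 fits.

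The mature miR-7a-5p (RefSeq, GRCm38.p6) and the seed matches in the GENCODE M21 transcript of Cyrano, 8300 bases long, are shown because they carry what is known of this RNA. Capitals mark the seed of the microRNA, bases 2 to 8, and in the transcript the match to it with the A opposite base 1.
miR-7a-5p: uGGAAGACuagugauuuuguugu
Cyrano 762 to 769: ttcaggttttttttttaatGTCTTCCA
Cyrano 2952 to 2959: gaacaacaaaatcaccaatGTCTTCCA
Both sites hold the same 8 bases at the seed. Upstream of it, the best ungapped match to the reverse complement of bases 12 to 23 of the microRNA was sought for each site separately. That best match was 12 of 12 bases for the site at 2952 and 3 of 12 for the site at 762. The level of miR-7 itself was not measured here.

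**Figure D2:**
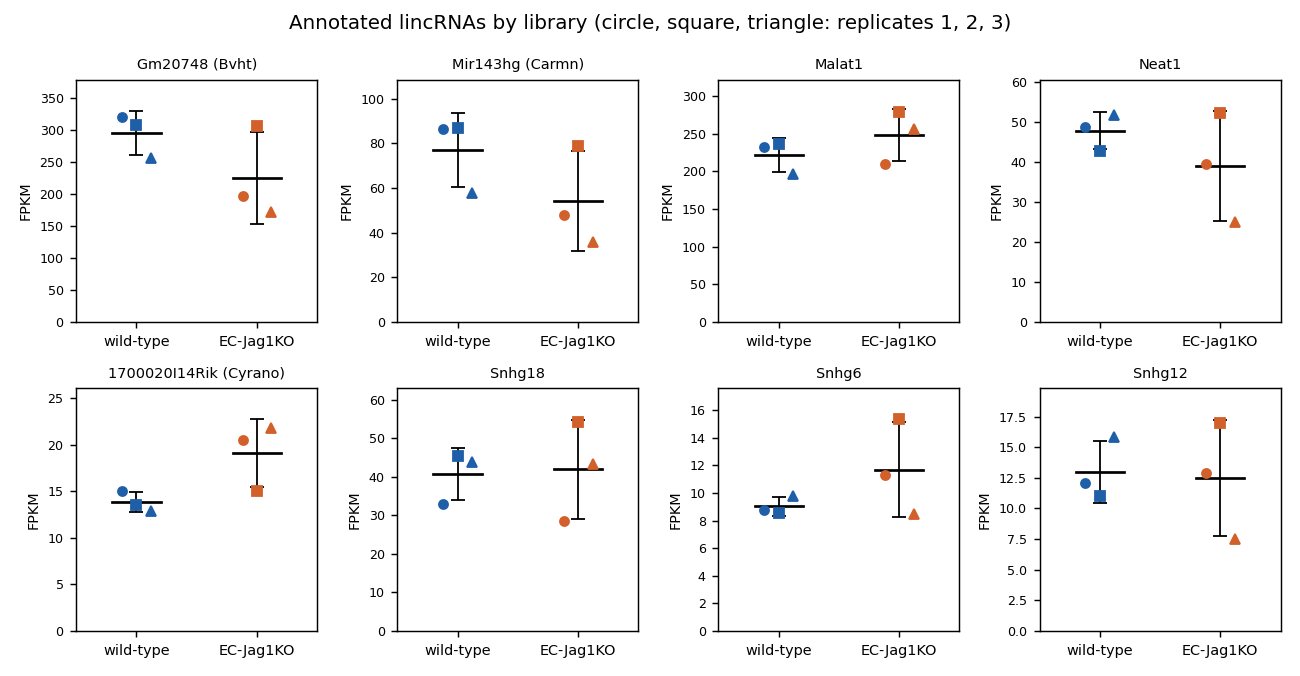
FPKM of 8 annotated lincRNAs in each library, by genotype (points; symbols give the replicate), with the mean (line) and SD (bars, n = 3). For Bvht and Carmn EC-Jag1KO replicates 1 and 3 are the lowest points, and for Cyrano they are the highest.

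The list of small nucleolar RNA hosts held the most members, 8 of 23 symbols (Snhg1, Snhg4, Snhg6, Snhg7, Snhg12, Snhg18, Snhg20 and Epb41l4aos). The spliced RNAs of most such hosts are short-lived, and the small RNAs cut from their introns guide modification of ribosomal and spliceosomal RNA. Of the 8, 2 had a log2 fold change above 0 and 6 below 0, where 50.05% of all 12165 genes tested lay below 0. The median was -0.089, against -0.00022 over all genes, and 0 of the 8 had an unadjusted limma p under 0.05, against 7.71% of all genes. Snhg18, the most abundant, stood at 32.9, 45.5 and 43.8 FPKM in the wild-type and at 28.5, 54.2 and 43.3 FPKM in the EC-Jag1KO libraries.

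Snhg12 stood at 12.1, 11.0035 and 15.8 FPKM in the wild-type and at 12.9, 16.97 and 7.53 FPKM in the EC-Jag1KO libraries. Snhg6 stood at 8.76, 8.53 and 9.77 against 11.3, 15.3 and 8.46 FPKM. Epb41l4aos (2410004N09Rik) stood at 9.15, 10.5 and 10.7 against 9.45, 9.47 and 4.49 FPKM. In each of these, and in Snhg1, Snhg4 and Snhg20 (2810008D09Rik), EC-Jag1KO replicate 3 was the lowest of the 6 libraries, while EC-Jag1KO replicate 2 was the highest for Snhg1, Snhg6, Snhg12 and Snhg18. The groups of all 8 overlapped.

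By coordinates in GENCODE M21, 9 members span 29 microRNA genes and 10 span 24 genes of small nucleolar or Cajal body RNAs, 16 hosts in all. None of the 16 had groups that did not overlap (13.6% of all genes tested), and 0 had an unadjusted limma p under 0.05 (7.71% of all genes), shares at which few of 16 would be counted. The host values are levels of the long RNA and do not measure the mature microRNA. The mature microRNAs of hosts with known vascular roles are shown (RefSeq, GRCm38.p6), ordered so that those with the same seed, in capitals, stand together.
miR-29b-3p: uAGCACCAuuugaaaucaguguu
miR-29c-3p: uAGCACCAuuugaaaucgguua
miR-17-5p: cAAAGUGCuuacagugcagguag
miR-20a-5p: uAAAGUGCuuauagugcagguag
miR-19a-3p: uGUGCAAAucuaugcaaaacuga
miR-19b-3p: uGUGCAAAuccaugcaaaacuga
miR-92a-3p: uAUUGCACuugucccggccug
miR-30c-5p: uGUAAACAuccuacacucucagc
let-7d-5p: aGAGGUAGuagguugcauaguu
miR-101a-3p: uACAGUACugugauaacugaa

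Of the miR-29 family, known for repressing collagens and other matrix genes, the genes Mir29b-2 and Mir29c lie in A330023F24Rik. This host stood at 10.1, 9.54 and 11.6 FPKM in the wild-type and at 8.02, 10.97 and 7.84 FPKM in the EC-Jag1KO libraries. EC-Jag1KO replicates 1 and 3 were its lowest libraries, and the log2 fold change was -0.21 ± 0.14 (SE). The 6 microRNAs of the miR-17 to miR-92a cluster, known for promoting proliferation, lie in Mir17hg, which stood at 0.957, 1.10 and 1.07 against 1.09, 1.46 and 0.829 FPKM.

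Gm27028, the host of miR-30c, stood at 4.56, 2.49 and 3.61 FPKM in the wild-type and at 2.75, 5.92 and 5.996 FPKM in the EC-Jag1KO libraries. The host of let-7d, 6720427I07Rik, had the narrowest range of these, 3.84 to 4.57 FPKM over the 6 libraries. E130102H24Rik, which holds miR-101a, stood at 11.5 to 16.3 FPKM in the wild-type and 11.1 to 15.9 FPKM in the EC-Jag1KO libraries. The groups of all 3 overlapped.

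Of the lincRNAs known to encode a small peptide, 1 of 10 symbols was a member, 1810058I24Rik, whose peptide is mitochondrial. It stood at 13.2, 11.2 and 13.2 FPKM in the wild-type and at 15.2, 12.6 and 10.96 FPKM in the EC-Jag1KO libraries. None of the 8 immune lncRNAs on the list was a member.

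Across all 165 lincRNAs no genotype difference passed the adjusted threshold of 0.05 in limma, as for 0.0% of all 12165 genes tested. The smallest adjusted p of a member was 0.268. At an unadjusted p under 0.05 stood 20 lincRNAs (12.1%), against 7.71% of all genes tested. Of these, 8 (4.85%) were higher in EC-Jag1KO, against 4.25% of all genes, and 12 (7.27%) were lower, against 3.46%. The shares were similar for the 141 antisense genes tested, at 12.8%, with 4.26% higher and 8.51% lower. The groups did not overlap for 22 lincRNAs (13.3%), against 13.6% of all genes. Of the 22, 9 were higher in EC-Jag1KO (5.45%, against 6.84%) and 13 lower (7.88%, against 6.73%). Below 0 lay the log2 fold change of 96 members (58.2%, against 50.05% of all genes), and the median was -0.035.

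The count on the lower side rested on wild-type replicate 3. Without that library 11 members stood at an unadjusted p under 0.05, 9 higher (5.45%) and 2 lower (1.21%), and the median log2 fold change was 0.0027. Over all genes tested without it, 4.45% were higher and 2.92% lower, with a median of 0.0097. Wild-type replicate 3 was the highest of the 6 libraries for 52 lincRNAs (31.5%, against 20.6% of all genes tested), and EC-Jag1KO replicate 3 was the lowest for 53 (32.1%, against 25.6%). Wild-type replicate 3 also had the highest summed adipocyte markers (1177 FPKM), whose part in these values was not tested. The lincRNAs varied more between replicates than protein-coding genes at each level. The median SD within groups (log2 scale) was 0.30 against 0.15 at means of 10 FPKM or more. It was 0.26 against 0.17 at 2 to 10, and 0.25 against 0.20 under 2. The trait was not particular to lincRNAs: over all levels the median SD was 0.33 for the 141 antisense genes tested and 0.25 for the lincRNAs.

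**Figure D3:**
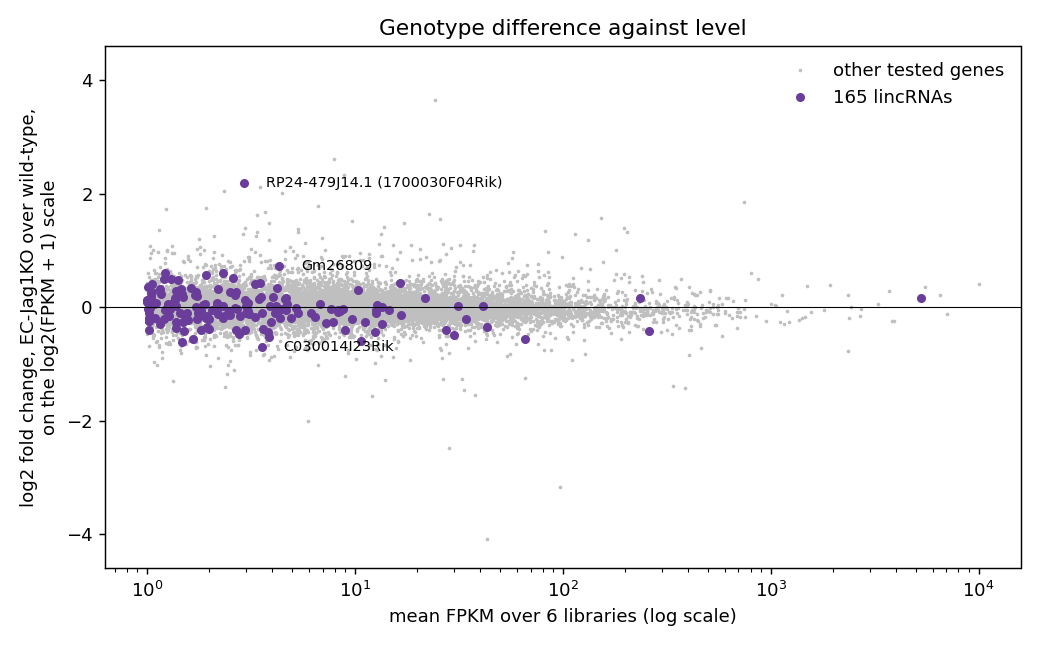
Log2 fold change, EC-Jag1KO over wild-type, against mean FPKM (log scale) for the 165 lincRNAs (purple) and the other genes tested (grey). RP24-479J14.1 stands apart from the other lincRNAs at 2.19, and Gm26809 (0.73) and C030014I23Rik (-0.70) are next on either side.

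A group of 17 lincRNAs is named for its difference: those of smallest p whose groups did not overlap and whose higher group had a mean of at least 2 FPKM, 7 higher and 10 lower in EC-Jag1KO. None passed the adjusted threshold, and 16 had an unadjusted p under 0.05. In 7 of them the unadjusted p stayed under 0.05 with each library left out in turn, 5 higher (RP24-479J14.1, Gm26809, D830026I12Rik, Gm22 and D930016D06Rik) and 2 lower (C030014I23Rik and Gm17552). Those fits reuse the libraries by which the genes were picked, so they add no independent support. RP24-479J14.1 also became a member through the group where it was high, as described next. No role is known to attach to most of these genes.

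RP24-479J14.1 (1700030F04Rik in GENCODE M21; minus strand of chr6:117646693-117751769) differed most. It stood at 0, 0.0645 and 1.32 FPKM in the wild-type libraries, on 0, 1 and 21 reads, and at 3.997, 4.16 and 8.13 FPKM in the EC-Jag1KO libraries, on 54, 51 and 130 reads. The highest wild-type and the highest EC-Jag1KO library were the pair that expressed Xist. The log2 fold change was 2.19 ± 0.38 (SE), with limma adjusted p = 0.268. Its wild-type mean, 0.463 FPKM, lay under the membership threshold and its EC-Jag1KO mean, 5.43 FPKM, above it, so it became a member through the group where it was high. Such a gene had to differ, and its fold change and p are given as a description. The nearest protein-coding gene, Zfp637, lies 89411 bases away and stood at 18.1 ± 1.0 against 18.6 ± 5.4 FPKM (SD, n = 3 each).

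Gm26809 (plus strand of chr6:18844220-18847360) stood at 2.63, 3.03 and 3.28 FPKM in the wild-type and at 5.30, 7.39 and 4.36 FPKM in the EC-Jag1KO libraries. All 3 EC-Jag1KO libraries lay above the wild-type range, and the log2 fold change was 0.73 ± 0.18 (SE; limma adjusted p = 0.402). It lies 1219 bases from Lsm8, a gene of the U6 small nuclear RNA ring, which had a lower mean in EC-Jag1KO (6.16 ± 0.61 against 4.76 ± 1.0 FPKM). Gm22 stood at 2.09, 2.001 and 1.83 against 2.92, 3.64 and 3.13 FPKM. GENCODE M21 names it Zfp469, the symbol of a zinc finger protein gene, so it may not be a lincRNA. D930016D06Rik stood at 3.09, 2.74 and 2.62 against 4.12, 3.52 and 4.84 FPKM.

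D830026I12Rik (plus strand of chr6:17197751-17210152) stood at 1.08, 1.21 and 1.82 FPKM in the wild-type and at 2.27, 2.53 and 2.59 FPKM in the EC-Jag1KO libraries. It lies 71033 bases from Cav2, which codes for a caveolin and had a log2 fold change of -0.089. The smallest differences of the 7 were those of 4833412C05Rik (2.36, 2.22 and 2.43 against 2.85, 3.09 and 3.14 FPKM) and Gm6277 (2.26, 1.55 and 1.78 against 2.46, 2.82 and 2.37 FPKM, limma adjusted p = 0.655). Gm6277 overlaps Cables1 on the opposite strand.

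C030014I23Rik had the largest difference among those lower in EC-Jag1KO. It stood at 4.21, 4.66 and 5.09 FPKM in the wild-type and at 1.79, 2.69 and 3.05 FPKM in the EC-Jag1KO libraries. The groups were separated by more than the range within the wild-type group, and the log2 fold change was -0.70 ± 0.16 (SE; limma adjusted p = 0.402). Gm17552 stood at 1.93, 2.22 and 2.40 against 1.42, 1.21 and 0.846 FPKM. It overlaps Carns1, carnosine synthase, on the opposite strand, and Carns1 was lower in EC-Jag1KO as well (13.5 ± 2.0 against 10.5 ± 0.98 FPKM).

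Gm12319 stood at 12.2, 12.9 and 13.5 FPKM in the wild-type and at 8.95, 11.1 and 5.30 FPKM in the EC-Jag1KO libraries. It lies 97 bases from Pfn1, the actin-binding protein profilin, whose log2 fold change was -0.14. AI480526, which starts 527 bases from the histone methyltransferase gene Setd1b on the other strand, stood at 30.7, 31.5 and 43.9 against 24.1, 30.7 and 19.9 FPKM. Its nearest values, those of wild-type replicate 1 and EC-Jag1KO replicate 2, were equal when rounded to 3 digits. Gm17501, which starts 327 bases from Cyr61, a matricellular protein gene of the vessel wall, stood at 4.30, 4.16 and 5.60 against 2.91, 4.11 and 2.02 FPKM.

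6330403L08Rik overlaps Pdgfa, the gene of a growth factor for mesenchymal cells, on the opposite strand. It stood at 7.33, 7.98 and 8.93 FPKM in the wild-type and at 6.24, 6.61 and 6.61 FPKM in the EC-Jag1KO libraries, and its log2 fold change of -0.28 was near that of Pdgfa (-0.35). A430046D13Rik, beside Myl6b, stood at 3.81, 4.18 and 5.67 against 3.11, 2.77 and 3.34 FPKM. The log2 fold changes of the other 3 were -0.40 for 4930516B21Rik, -0.29 for Gm27202 and -0.26 for Gm11734. Wild-type replicate 3 was the highest library for 9 of these 10, the exception being Gm27202.

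**Figure D4:**
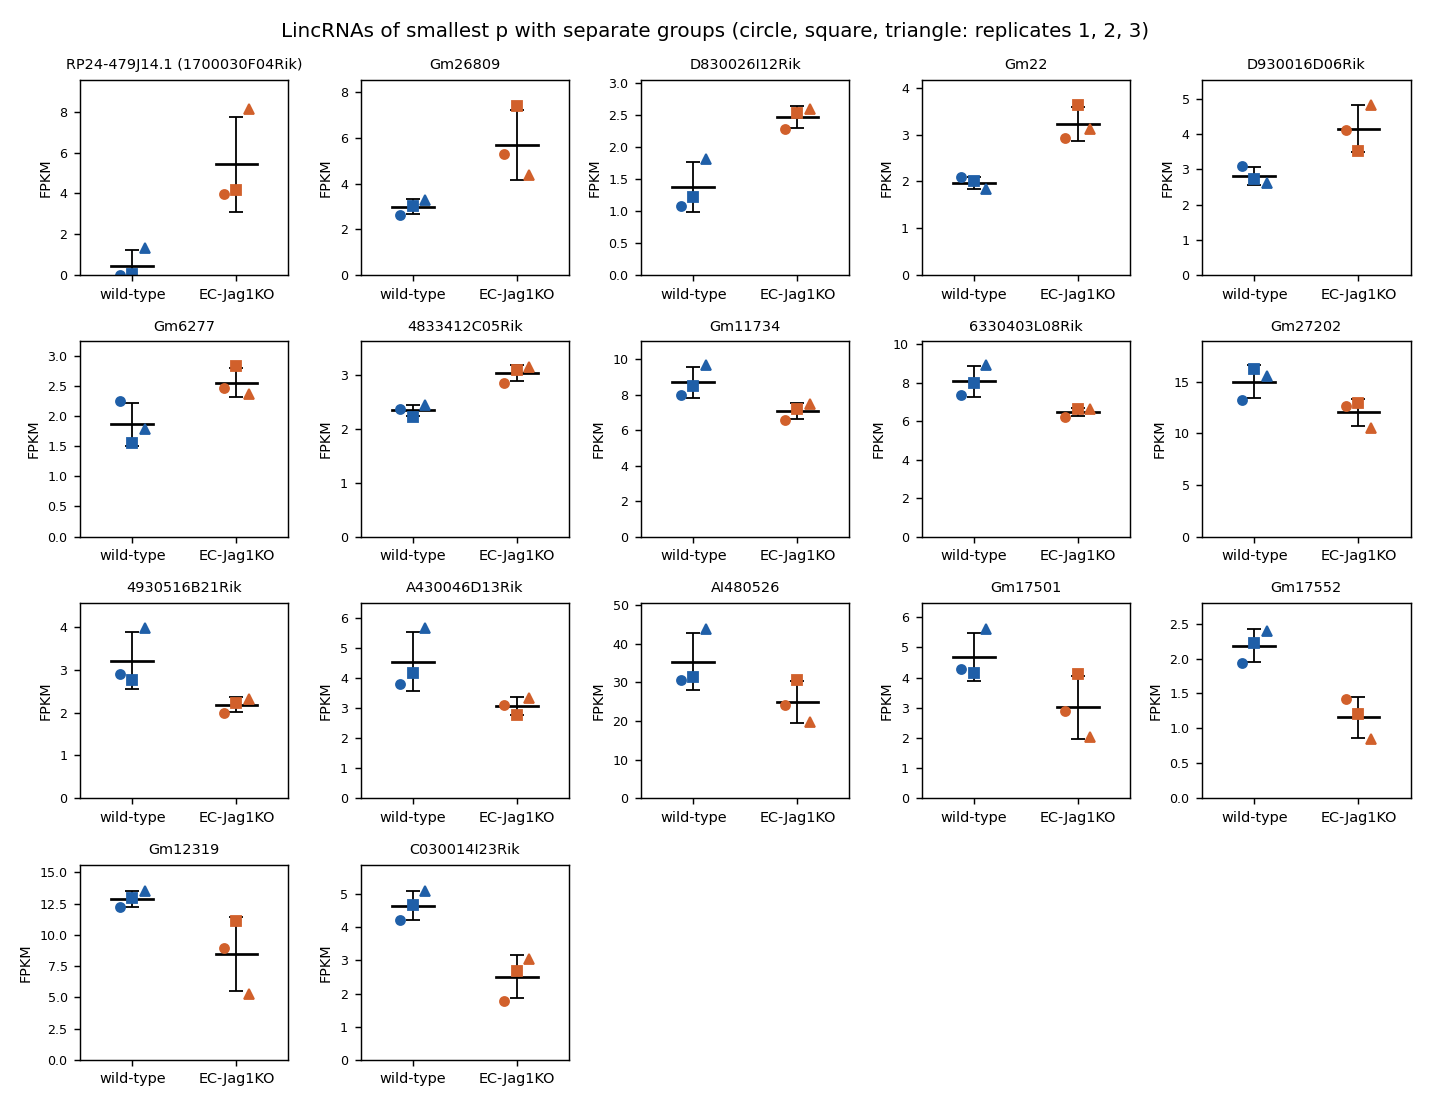
FPKM in each library of the 17 lincRNAs named for their difference, by genotype (points; symbols give the replicate), with the mean (line) and SD (bars, n = 3). Panels run from the highest log2 fold change, RP24-479J14.1 (2.19), to the lowest, C030014I23Rik (-0.70), and wild-type replicate 3 is the highest point in most panels of the lower group.

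The promoters of lincRNAs were searched for TGGGAA on both strands, the core of the sequence bound by RBPJ, the DNA-binding partner of activated Notch. RefSeq (GRCm38.p6) gave a promoter, 250 bases before to 50 bases after the start, for 84 of the 165, 38 of them at the start in the deposited table. The motif was in 28 of the 84 (33.3%), against 25.6% of 32851 promoters of all genes. The median GC content of these sets differed as well, at 58.8% and 52.7%, and its part in the share with the motif was not tested. The promoters of RP24-479J14.1 and D830026I12Rik are shown because these genes lay among the highest differences and start where the table puts them. Capitals mark the motif, here as its reverse complement.
RP24-479J14.1, minus strand of chr6:117751720-117752019: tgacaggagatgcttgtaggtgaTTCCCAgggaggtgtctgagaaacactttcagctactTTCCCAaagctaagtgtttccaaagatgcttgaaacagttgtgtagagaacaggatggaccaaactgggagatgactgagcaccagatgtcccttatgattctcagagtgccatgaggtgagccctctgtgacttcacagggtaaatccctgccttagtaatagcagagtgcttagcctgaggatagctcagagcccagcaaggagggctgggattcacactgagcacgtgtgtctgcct
D830026I12Rik, plus strand of chr6:17197501-17197800: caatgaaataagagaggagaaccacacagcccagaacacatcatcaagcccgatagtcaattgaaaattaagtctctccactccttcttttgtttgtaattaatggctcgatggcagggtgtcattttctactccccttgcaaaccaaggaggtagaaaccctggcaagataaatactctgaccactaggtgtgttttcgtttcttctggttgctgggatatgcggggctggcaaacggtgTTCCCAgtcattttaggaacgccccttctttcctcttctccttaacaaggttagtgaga
The promoter of RP24-479J14.1 holds 2 matches and 1 CpG, and that of D830026I12Rik holds 1 match and 6 CpGs, where the median was 18.5 CpGs over the 84 and 7 over all promoters. The promoter of 4833412C05Rik had no match. Of the 17 lincRNAs named for their difference, 5 had a promoter in RefSeq and 3 of those held the motif. A match is a description of these letters only.

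Most members lie close to a protein-coding gene: the median gap to the nearest was 422 bases, and 49 start on the opposite strand within 2000 bases of its start. For 132 members both genes were tested, and their log2 fold changes had the same sign in 81 pairs (61.4%), with Pearson's r of 0.17 and Spearman's rho of 0.22 across pairs, which share the same 6 libraries and are not independent. The correlation was 0.40 (Pearson) for the 36 pairs that overlap on opposite strands, whose reads may be shared, and 0.10 for the 89 that do not overlap, which include RP24-479J14.1. By other measures these sets were closer, with Spearman's rho of 0.28 against 0.17 and the same sign in 61.1% against 60.7% of pairs. Pvt1 and Myc, named after their values were seen, lie 47612 bases apart. Myc stood at 1.59 ± 0.24 against 3.06 ± 0.67 FPKM (SD, n = 3 each; log2 fold change 0.64), while the log2 fold change of Pvt1 was 0.18.

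**Figure D5:**
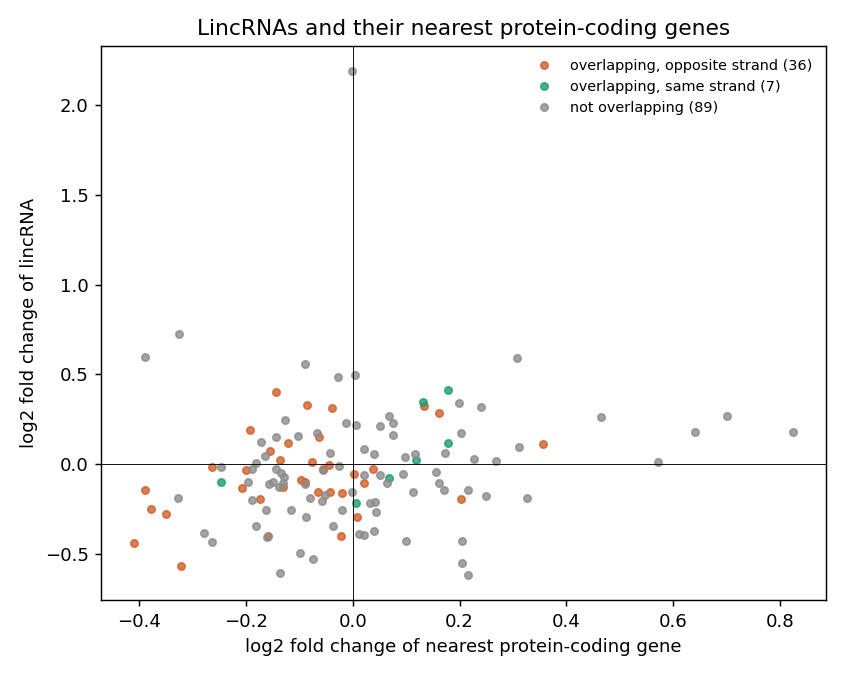
Log2 fold change of the lincRNA against that of its nearest protein-coding gene for 132 pairs, coloured by whether the genes overlap and on which strand. The 36 pairs overlapping on opposite strands (orange) show a Pearson correlation of 0.40 and the 89 pairs that do not overlap (grey) one of 0.10, with the same sign in 61.1% and 60.7% of pairs.

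The members that varied most between replicates of a group were AU020206, Gm19705, RP24-479J14.1, E130006D01Rik and Gpr137b-ps. AU020206 stood at 7.93, 8.86 and 21.1 FPKM in the wild-type and at 9.89, 6.59 and 12.8 FPKM in the EC-Jag1KO libraries. Replicate 3 was its highest library in each genotype. Gm19705 and E130006D01Rik were lowest in EC-Jag1KO replicate 3, at 1.82 and 0.426 FPKM, and 3.43 to 5.93 and 1.31 to 2.61 FPKM in the other libraries. Gpr137b-ps, a pseudogene in GENCODE M21 whose reads may come from its parent gene, ranged from 0.29 to 2.92 FPKM.

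Among the 15 most abundant members, those not yet described carry no established role in the vessel wall, except that Dubr is known in mouse from neuronal and muscle precursor cells. Gm26532 stood at 45.2, 34.1 and 29.99 FPKM in the wild-type and at 33.4, 40.8 and 21.98 FPKM in the EC-Jag1KO libraries. RP24-69I6.1 stood at 30.6, 32.4 and 29.9993 against 27.2, 36.9 and 30.8 FPKM. AI838599 stood at 25.1, 24.8 and 44.7 against 17.9, 29.98 and 21.5 FPKM.

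Wild-type replicate 3 set the high wild-type mean of AI838599, whose log2 fold change was -0.41 with all libraries and -0.13 without that one. C330006A16Rik (Tmem250-ps in GENCODE M21) stood at 17.7, 23.9 and 20.5 FPKM in the wild-type and at 22.03, 23.1 and 23.8 FPKM in the EC-Jag1KO libraries. Gm10687, an antisense gene in GENCODE M21, stood at 15.2, 15.7 and 20.7 against 20.5, 18.97 and 9.40 FPKM. Its lowest value was again that of EC-Jag1KO replicate 3, while for Dubr (5330426P16Rik; 17.5, 11.7 and 14.5 against 11.6, 10.2 and 22.2 FPKM) that library was the highest.

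The 4 lincRNAs at an unadjusted limma p under 0.05 that were not named for their difference were Cyrano, Gm16576, Gm26964 and 4933406C10Rik, the last 3 named after their values were seen. Gm16576 stood at 3.41, 4.20 and 5.05 FPKM in the wild-type and at 3.62, 2.55 and 2.81 FPKM in the EC-Jag1KO libraries. Gm26964 stood at 1.27, 2.54 and 2.20 against 1.04, 0.483 and 1.34 FPKM. Groups of both overlapped by 1 library of each genotype. For 4933406C10Rik they did not overlap, with 0.829, 0.853 and 0.834 FPKM in the wild-type and 1.93, 1.57 and 1.28 FPKM in the EC-Jag1KO libraries, so this gene reached the membership threshold through the EC-Jag1KO group.

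The genes of proteins that retain, modify or degrade RNA were measured in the same libraries, as RNA only. All 44 listed genes were tested, 21 had a log2 fold change above 0 and 23 below 0, and 0 passed the adjusted threshold. At an unadjusted limma p under 0.05 stood 3 (6.82%), near the 7.71% of all genes tested, so the count is no result about these genes. Mettl3, the catalytic subunit of the m6A methyltransferase, stood at 7.31 ± 0.43 in the wild-type and 5.34 ± 0.36 FPKM in EC-Jag1KO (SD, n = 3 each; log2 fold change -0.39, limma adjusted p = 0.402). Smg1, the kinase of nonsense-mediated decay, stood at 9.52 ± 1.5 against 12.7 ± 0.82 FPKM, and Exosc1, a subunit of the RNA exosome, at 7.97 ± 0.54 against 9.85 ± 0.62 FPKM. The 7 genes of paraspeckle proteins had a median log2 fold change of -0.097, and 0 of them had an unadjusted p under 0.05.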

How the data were processed

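The authors deposited 1 table of FPKM values, 1 column per sample, with gene coordinates, length and biotype per the file headers. The submitters' processing notes name STAR, HTSeq, edgeR and mm10, with no role or version; neither annotation release nor strand setting is given in the sources used here. Converted back, every deposited FPKM value (100.0%) lay less than 0.05 from an integer read count, which gave the depths and an alternative fit. Intervals and standard errors cover the spread between samples only.

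The 12165 of 35275 genes averaging 1 FPKM or more were fitted on log2(FPKM + 1) with limma 3.58.1 (R 4.3.3), genotype as the only term, intensity trend, two-sided, with Benjamini-Hochberg adjustment over all of them. The scale understates differences of low genes. Members, gene lists and naming rules were chosen with earlier results of these data known. Named were the 15 most abundant members, up to 10 per direction by difference, list members, those next to the threshold and the 5 of largest spread. The fit was tested on simulated data. Identifiers were matched to GENCODE M21, and sequences came from RefSeq (GRCm38.p6) and GENCODE M21. Python 3.11.15 and matplotlib 3.10.9 made the figures. Alternatives covered pseudocount, filter, scaling, variance model, sample weights, voom on recovered reads, replicate block, membership threshold and each library left out. Sex as a covariate, and removal of both Xist-expressing libraries, were added after seeing the data.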

Additional observations from a re-analysis of the deposited data

How the results depend on the processing

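No lincRNA passed the adjusted threshold under any alternative except with array weights and with sex as a covariate. With array weights 26 members passed, and 57 stood at an unadjusted p under 0.05, against 34.6% of all genes tested at that p. With sex as a covariate 1 member passed, RP24-479J14.1, which became a member through the group where it was high. The array weights gave EC-Jag1KO replicate 1 a weight of 14.7 and the other libraries 0.259 to 1.61. With each library left out in turn the number at an unadjusted p under 0.05 ran from 11 to 24 and the median log2 fold change from -0.078 to 0.0027; without both Xist-expressing libraries, an alternative chosen after seeing the data, they were 13 (9 higher, 4 lower) and 0.051. The replicate numbers did not pair the samples (correlations of same-numbered samples 0.055, 0.051 and -0.050), and with the number as a replicate block 17 members stood at an unadjusted p under 0.05 and 0 passed. The voom fit on recovered reads gave 15 and 0. A filter at 2 FPKM gave 14 of 91 members, a membership threshold of 0.5 FPKM 26 of 246, and at least 1 FPKM in each group 17 of 139. Without wild-type replicate 3 the 11 members were 6.67%, against 7.37% of all genes tested. The other counts of this paragraph, except the 57 with array weights, are given without the share over all genes. They show how the count moves with the processing and are no result about lincRNAs. The Jag1 log2 fold change ran from -0.091 to 0.40 with each library left out.

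None of the 17 lincRNAs named for their difference turned direction under any alternative. They were picked for groups that do not overlap, so a left-out library, another pseudocount or sample weights could not turn them. Their steady direction is therefore no support for a difference. Of the 26 named for level or list, 16 turned direction, all with groups that overlap. With array weights the log2 fold change was -0.018 for 1010001N08Rik, 0.31 for Gm10687, -0.0995 for Malat1, -0.17 for RP24-69I6.1, 0.057 for Snhg12 and -0.37 for Snhg18. Without both Xist-expressing libraries it was 0.093 for 2810008D09Rik, 0.33 for Gm10687, -0.020 for Pvt1, 0.20 for Snhg1 and 0.33 for Snhg12. For Fendrr it was -0.017 with a pseudocount of 0.1 and -0.16 with voom, and for Yam1 -0.13 with quantile normalization. With each library left out it ran as follows: 1010001N08Rik -0.088 to 0.24, 1810058I24Rik -0.083 to 0.14, 2810008D09Rik -0.33 to 0.0063, 5330426P16Rik -0.37 to 0.16, Fendrr -0.24 to 0.41, Gm10687 -0.32 to 0.20, Gm26532 -0.39 to 0.038, Mir17hg -0.064 to 0.15, RP24-69I6.1 -0.094 to 0.12, Snhg1 -0.31 to 0.15, Snhg12 -0.35 to 0.19, Snhg18 -0.19 to 0.26 and Snhg7 -0.14 to 0.014. The causes were not tested.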
